A study of Sus scrofa with 43 samples.

Results

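The expression of 6 genes of programmed cell death was followed in the jejunum of piglets from sows given amoxicillin around farrowing and from untreated sows. They were TNFSF10 (NM_001024696), FAS (NM_213839), CASP8 (NM_001031779), CASP1 (NM_214162), XIAP (NM_001097436) and BCL2L1 (NM_214285). The members were chosen by name, as the spots on the array that carry the pig RefSeq transcript of each gene. All 6 had at least 1 probe among the 35884 transcripts on the array. Of the 12771 transcripts bright enough to be tested, 5 were members, and BCL2L1 was too dim. The array names no genome build, so positions are not given.

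Gene expression was measured on 43 one-colour Agilent porcine arrays, 1 array for each male piglet, in RNA from scrapings of the jejunum. Sows of the amoxicillin group got the antibiotic on top of their feed at 15 mg/kg body weight from the week before expected farrowing until farrowing, and control sows got the same feeds with none. Piglets were killed at 5 ages (day 1, day 7, the day of weaning, and 4 d or 28 d after it, called 4 d and 28 d postweaning below), so that no piglet was measured more than once. There were 6, 6, 3, 5 and 3 control piglets and 4 amoxicillin piglets at each age. The paper takes each sample as its own piglet, and the control arrays labelled 19 and 19B at day 1 are counted so here. The study took 1 piglet per sow at an age, the labels name no sow, and scrapings hold epithelial, immune and stromal cells together.

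Cells can be told to die from outside or from inside. TNFSF10 (TRAIL) and the ligand of FAS bind death receptors on the cell surface, and the receptors gather CASP8, the initiator caspase that activates the executioner caspases. XIAP blocks caspases directly, BCL2L1 (Bcl-xL) keeps mitochondria from releasing cytochrome c, and CASP1 belongs to another branch, in which the inflammasome uses it to mature interleukin-1β and interleukin-18. In the gut, enterocytes are shed and replaced continually, and weaning is a time of mucosal inflammation and remodelling.

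Levels are log2 intensities after background correction and quantile normalisation. A level can be compared between piglets for 1 gene but not between genes, because each probe has its own brightness. The number of gene spots well above background was 15937 to 29827 in control piglets (median 28182) and 16150 to 26290 in amoxicillin piglets (median 21316.5). Each of the 6 slides held 1 arm only, so that effects of slide and of amoxicillin cannot be told apart. The part of this difference in brightness in the results below was not tested. The epithelial markers FABP1, FABP2, APOA1, APOA4, ANPEP and SLC5A1 were well above background on 43 of 43 arrays. These 6 markers had a saturated spot on 25 to 42 of the arrays, so that their levels are not given below, whereas no spot of a member was saturated. Since scrapings are bulk samples, fewer cells of a type and less RNA per cell cannot be told apart.

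CASP1 had its lowest mean at weaning and its highest 4 d later in both arms, a step of more than 3-fold. CASP8 changed with age in both arms, and TNFSF10 and FAS did so in the control arm. At 28 d postweaning TNFSF10, which promotes death, and XIAP, which protects from it, were both called lower in piglets of amoxicillin sows. Both calls were lost without control piglet 34 of that age and with slide fitted as a random block. The amoxicillin contrast was not shown to differ between ages for any member. No member passed the thresholds between arms at a younger age.

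**Figure D1:**
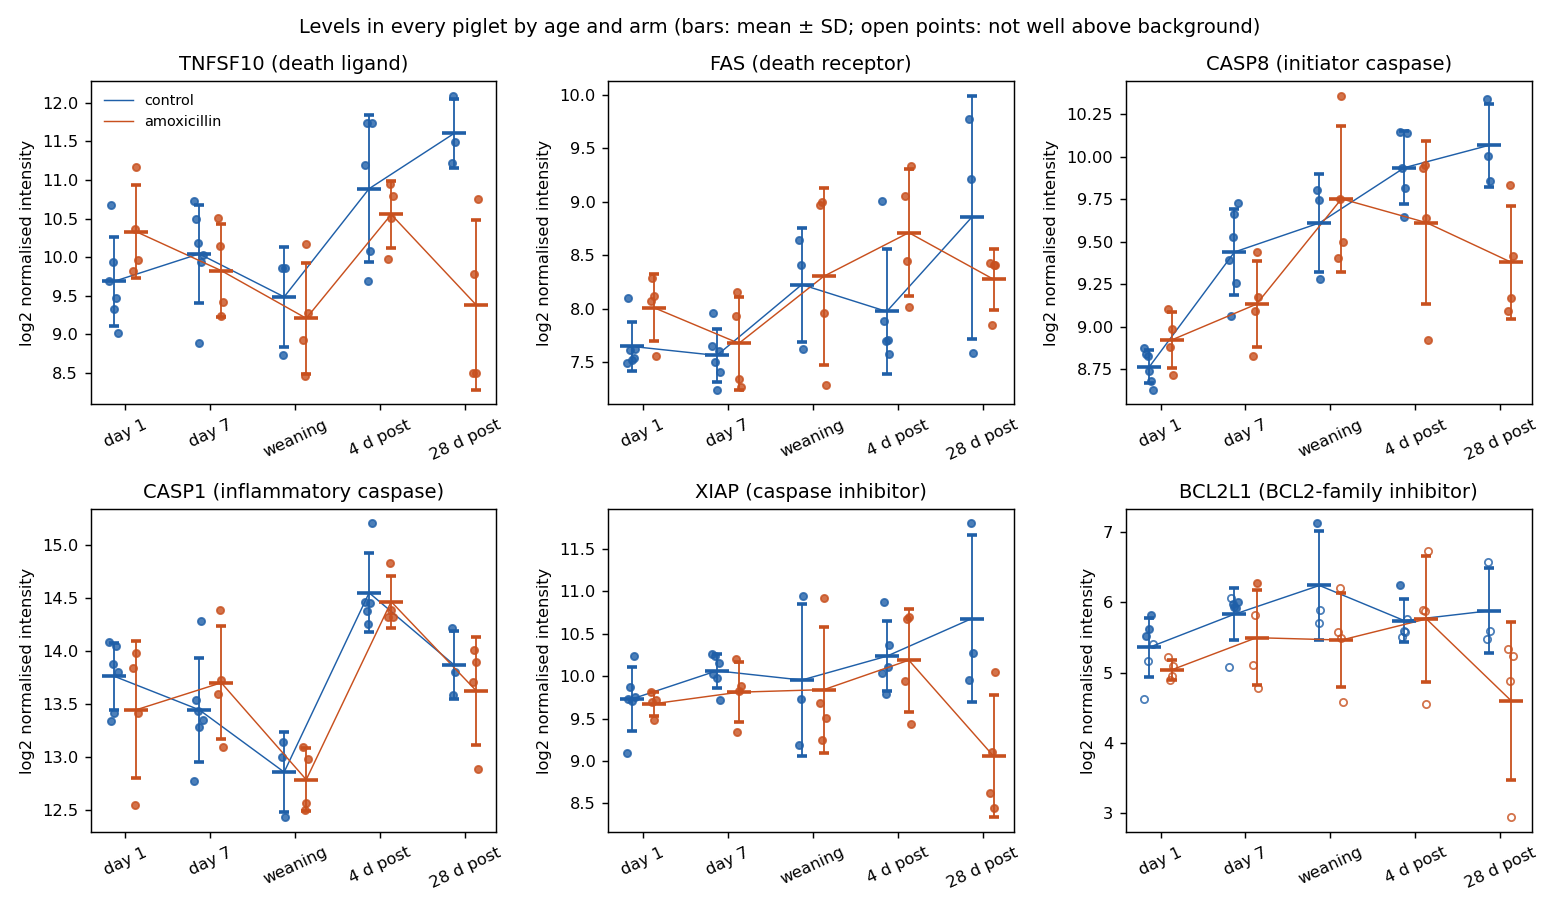
Log2 normalised intensity of each member (y axis, a separate scale for each panel) against age (x axis), with 1 point per piglet, control in blue and amoxicillin in orange, and bars for the mean ± SD. CASP1 dips at weaning and peaks at 4 d postweaning in both arms, TNFSF10 and XIAP part between arms at 28 d postweaning, and most BCL2L1 points are open, that is, not well above background.

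Over the whole set, the thresholds between arms were an adjusted p below 0.05 and a log2 difference beyond 1.5. None of the 5 tested members was called at day 1, day 7, weaning or 4 d postweaning, where 0.211%, 0%, 3.41% and 1.54% of all 12771 tested genes were called in either direction. At an unadjusted p below 0.05 in limma, FAS at 4 d postweaning was the 1 member at these ages. FAS passed the filter on dim genes only through the amoxicillin groups of 4 d and 28 d postweaning. It thus entered the tests through a group that was high in this comparison, and that p-value is no support for a difference. At 28 d postweaning 2 of 5 members were called lower (TNFSF10 and XIAP), where 1.65% of all genes were. The amoxicillin contrast was not shown to differ between ages for any member (0 of 5, against 6.18% of genes, F-test in limma), with TNFSF10 closest (adjusted p = 0.0653) and XIAP at 0.213, and 2 of 5 members had an unadjusted p below 0.05, as had 19.5% of all genes.

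**Figure D2:**
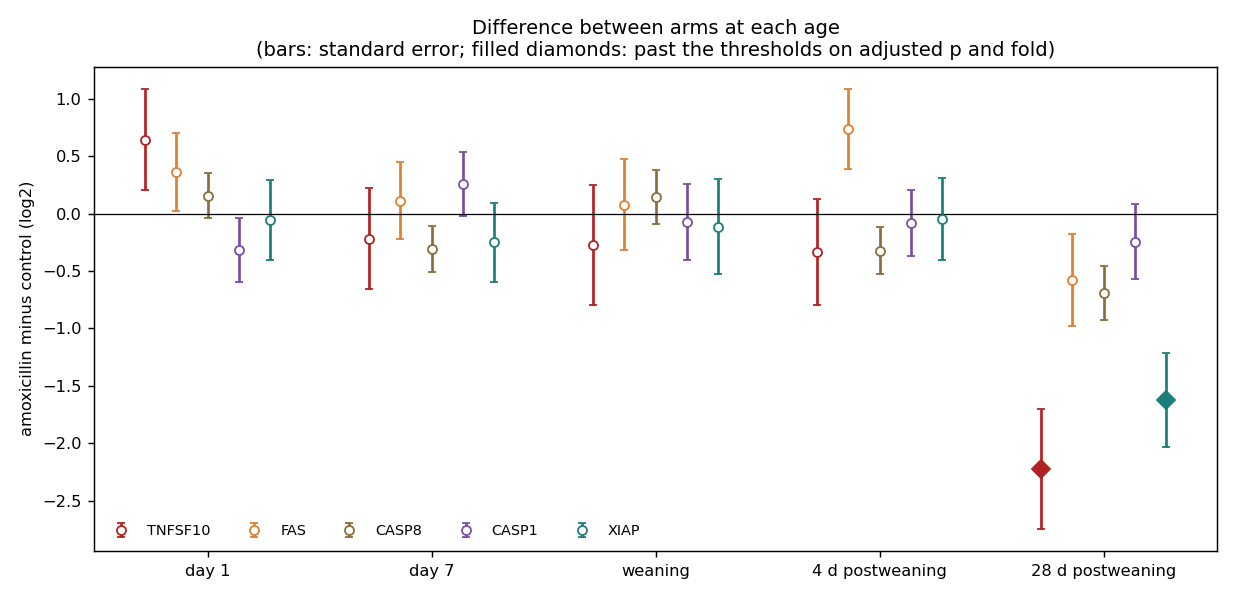
Amoxicillin minus control (y axis, log2) for the 5 tested members at each age (x axis), with bars for the standard error and filled diamonds for the differences past both thresholds. Only TNFSF10 (-2.22) and XIAP (-1.62) at 28 d postweaning are filled.

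Between ages, 4 of 5 members passed the F-test in control piglets, where 30.5% of all genes did, and 2 of 5 passed in amoxicillin piglets, where 47.0% did. For single steps in control piglets the share of all genes was 0.783% called higher to day 7 (1 of 5 members, CASP8), 0.125% in either direction to weaning (0 of 5), 1.49% higher to 4 d postweaning (1 of 5, CASP1) and 0% to 28 d postweaning (0 of 5). In amoxicillin piglets it was 0.736% in either direction to day 7 (0 of 5 members), 5.85% lower to weaning (1 of 5, CASP1), 3.05% higher to 4 d postweaning (1 of 5, CASP1) and 8.41% lower to 28 d postweaning (1 of 5, XIAP). At an unadjusted p below 0.05 in limma, FAS and CASP1 would have been added in the control step to 28 d postweaning, while none of the other steps with 0 called members had a member to add.

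The death ligand TNFSF10 did not differ detectably between arms until the last age. In control piglets its mean was 9.69 ± 0.58 (SD, n = 6) at day 1 and 10.04 ± 0.64 (n = 6) at day 7. It was 9.48 ± 0.65 (n = 3) at weaning, 10.89 ± 0.96 (n = 5) at 4 d postweaning and 11.60 ± 0.45 (n = 3) at 28 d postweaning. The level thus lay lowest at weaning and highest at the last age, a span of 2.12 on the log2 scale. In amoxicillin piglets (n = 4 at each age) the means were 10.33 ± 0.60, 9.82 ± 0.60, 9.21 ± 0.72, 10.55 ± 0.43 and 9.38 ± 1.1 in the same order. These also lay lowest at weaning, but the highest mean was that of 4 d postweaning, and the span was 1.35. Ordered by mean, neighbouring ages of TNFSF10 overlapped in each arm and differed by less than the larger of their SDs.

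The ages of the control arm differed in TNFSF10 (adjusted p = 0.00432, F-test in limma), whereas the F-test of the amoxicillin arm did not pass (adjusted p = 0.0676). The step after weaning was 1.40 (standard error 0.50) in control and 1.35 (standard error 0.48) in amoxicillin piglets, and passed the test in neither (adjusted p = 0.107 and 0.0830). With the slide as a random block the adjusted p of the control F-test was 0.0525.

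The TNFSF10 levels of the oldest piglets, at 28 d postweaning, were 11.22, 12.09 and 11.5 in the control piglets 13, 34 and 37. They were 8.49, 9.78, 8.49 and 10.76 in the amoxicillin piglets 37, 38, 39 and 40. All control piglets lay above all amoxicillin piglets, and within the amoxicillin group piglets 37 and 39 lay well under piglet 40. The difference was -2.22 (standard error 0.52, adjusted p = 0.0101), or 4.67-fold lower after amoxicillin. It was -2.17 with the probe A_72_P177851 alone and -2.28 with A_72_P444191 alone, each past the thresholds (adjusted p = 0.0419 and 0.0128). Amoxicillin piglets 37, 38, 39 and 40 had 16150, 16220, 20940 and 18208 gene spots well above background. Control piglets 13 and 37 had 29479 and 28240. The amoxicillin median of 17214 was the lowest of any group, and its part in the difference was not tested. Control piglet 34, the array with the fewest such spots (15937), carried the highest TNFSF10 level. Without it the difference was -1.98 (adjusted p = 0.0759), without amoxicillin piglet 39 it was -1.93 (adjusted p = 0.0508), and with slide fitted as a random block it was -2.30 (adjusted p = 0.0700).

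At weaning the TNFSF10 probes pointed in opposite directions. A_72_P444191 had means of 9.88 ± 0.61 in control and 10.45 ± 0.57 in amoxicillin piglets, while A_72_P177851 had 9.09 ± 0.70 and 7.96 ± 1.16. Neither difference passed the test (adjusted p = 0.601 and 0.298), and the mean of both probes, at -0.28 (standard error 0.52), hides this disagreement. At 28 d postweaning both probes gave the same direction.

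**Figure D3:**
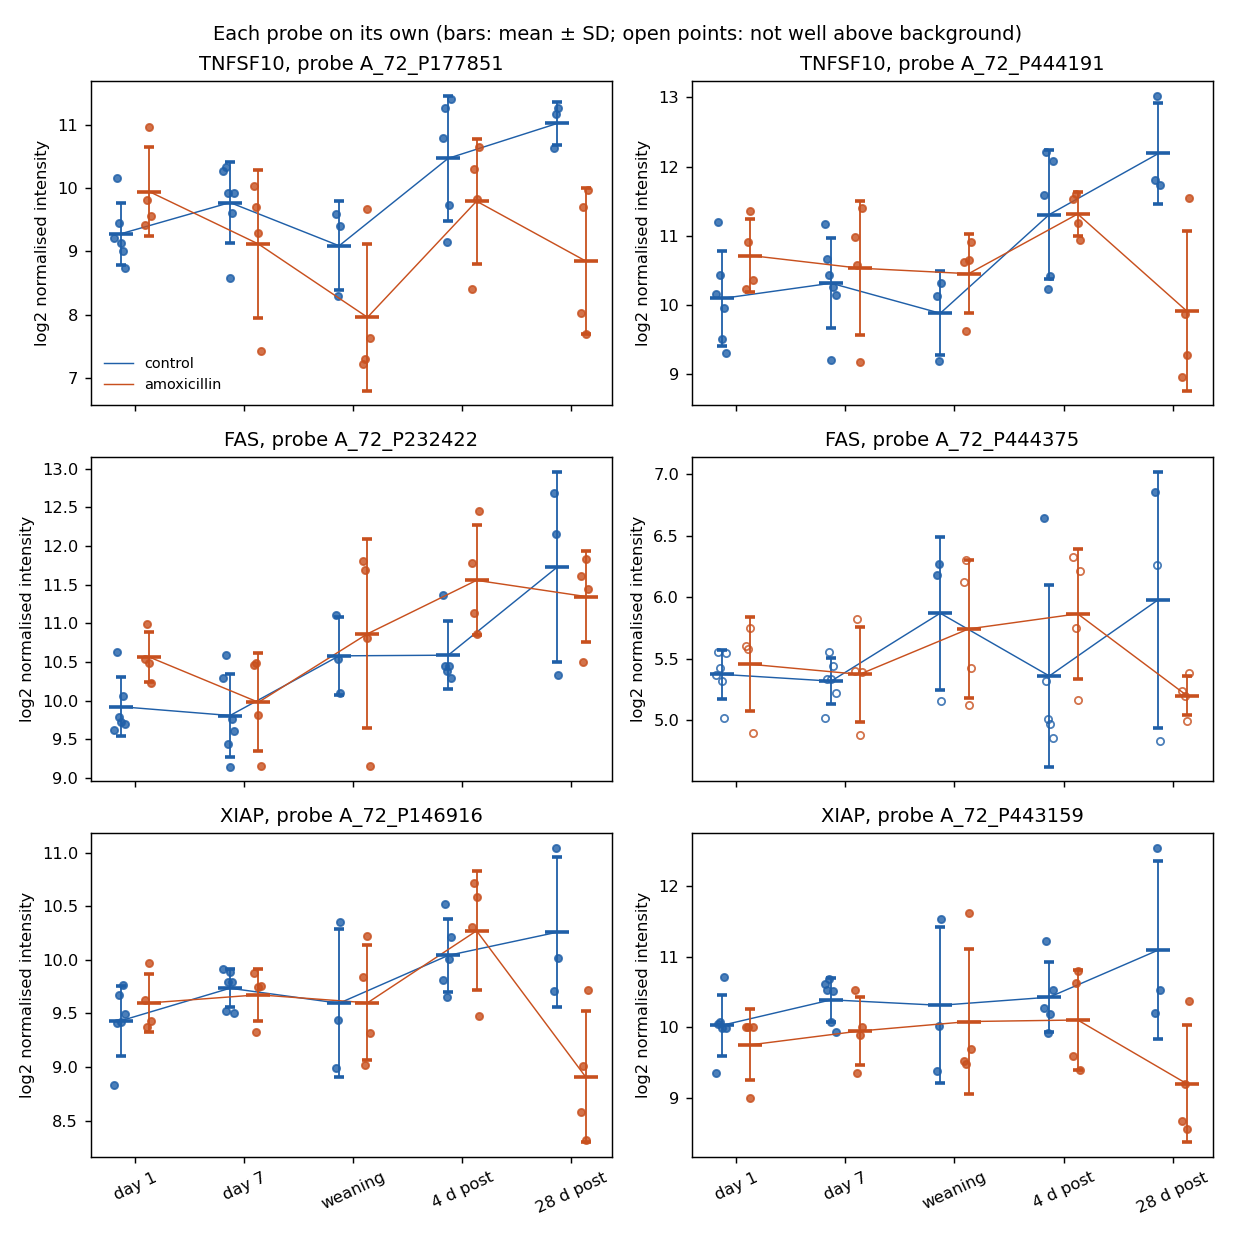
Log2 normalised intensity (y axis) of each probe of TNFSF10, FAS and XIAP by age (x axis), with 1 point per piglet, bars for the mean ± SD and open points for spots not well above background. The probes of TNFSF10 and of XIAP each show lower amoxicillin means at 28 d postweaning, whereas FAS probe A_72_P444375 is mostly open, between 4.83 and 6.85.

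FAS, the receptor that carries the death signal of the FAS ligand, was measured by an informative probe and a dim one. A_72_P232422 was well above background on every array, while A_72_P444375 was so on 2 control arrays at weaning, 1 at 4 d postweaning and 1 at 28 d postweaning. The mean of both probes ran from 7.65 ± 0.23 at day 1 and 7.56 ± 0.24 at day 7 to 8.85 ± 1.14 at 28 d postweaning in control piglets. In amoxicillin piglets it ran from 8.01 ± 0.31 at day 1 to 8.71 ± 0.59 at 4 d postweaning. Neighbouring ages in the order of means differed by less than the larger SD in each arm.

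FAS changed between the ages of the control arm (adjusted p = 0.0396) and did not pass in the amoxicillin arm (adjusted p = 0.148). The informative probe alone gave an adjusted p of 0.00944 in control and 0.0298 in amoxicillin piglets. Its lowest means were those of day 7, at 9.81 ± 0.54 and 9.98 ± 0.63, and its highest were 11.73 ± 1.23 at 28 d postweaning in control and 11.56 ± 0.71 at 4 d postweaning in amoxicillin piglets. With the mean of both probes the control call was lost in 12 of 43 fits that left out an array, with an adjusted p of 0.258 without control piglet 13 and 0.177 without control piglet 34 of 28 d postweaning.

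Between arms at 4 d postweaning the informative FAS probe was at 0.97 (standard error 0.44, adjusted p = 0.305), amoxicillin minus control, and the mean with the dim probe at 0.74 (standard error 0.35, adjusted p = 0.340). By the mean of both probes the amoxicillin piglets 10, 32, 33 and 34 had 9.05, 8.44, 8.01 and 9.33, and the control piglets 10, 29, 30, 31 and 32 had 9.0, 7.89, 7.70, 7.71 and 7.57. Control piglet 10 alone reached into the amoxicillin range. FAS exceeded the filter value of 7.68 on every array only in the amoxicillin groups of 4 d and 28 d postweaning, so its tests depend on those groups. The control levels of FAS at 28 d postweaning were 9.77, 9.21 and 7.58, so that the amoxicillin levels of 7.85 to 8.43 lay inside the control range.

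CASP8, the initiator caspase downstream of these receptors, changed with age in both arms. In control piglets the mean was 8.76 ± 0.10 at day 1, 9.44 ± 0.25 at day 7 and 9.61 ± 0.29 at weaning. It was 9.94 ± 0.22 at 4 d and 10.07 ± 0.25 at 28 d postweaning, so that the means followed the order of the ages. In amoxicillin piglets the means were 8.92 ± 0.17, 9.13 ± 0.25, 9.75 ± 0.43, 9.61 ± 0.48 and 9.38 ± 0.33, with the highest at weaning. The adjusted p of the F-test was 1.72e-05 in the control and 0.0100 in the amoxicillin arm. In the control arm, day 1 against day 7 was the only pair of neighbours whose ranges did not overlap, and in the amoxicillin arm all neighbours in the order of means overlapped.

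The step of CASP8 from day 1 to day 7 in control piglets was 0.68 (standard error 0.18, adjusted p = 0.0417), 1.60-fold. The 6 piglets of day 1 lay between 8.63 and 8.87 (median 8.78) and the 6 of day 7 between 9.06 and 9.73 (median 9.46). On the slide that held both ages, the 2 piglets of day 7 (9.06 and 9.39) also lay above the 6 of day 1, by 0.46. The same step in amoxicillin piglets was 0.21 (standard error 0.22, adjusted p = 0.874), and their step from day 7 to weaning was 0.62 (standard error 0.22, adjusted p = 0.0582). The control step was lost under 7 of 14 alternatives, among them each of its 3 probes alone (adjusted p = 0.102, 0.288 and 0.203), the slide as a random block (0.61, adjusted p = 0.220) and no filter on dim genes (adjusted p = 0.126), and in 11 of 43 fits that left out an array (0.62 to 0.75). The amoxicillin F-test did not pass with that block (adjusted p = 0.115).

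The CASP8 levels at 28 d postweaning were 10.34, 10.01 and 9.86 in control piglets 13, 34 and 37, and 9.09, 9.83, 9.17 and 9.42 in amoxicillin piglets 37, 38, 39 and 40. The groups did not overlap, though amoxicillin piglet 38 and control piglet 37 lay side by side. The difference of -0.69 (standard error 0.24) did not pass the test (adjusted p = 0.0909). The 3 CASP8 probes disagreed at weaning, with differences between arms of 0.71, -0.75 and 0.47 for A_72_P146716, A_72_P228337 and A_72_P443353, and none passed (adjusted p = 0.154, 0.133 and 0.410). The amoxicillin F-test passed with A_72_P146716 and with A_72_P443353 (adjusted p = 6.66e-04 and 0.0207) but not with A_72_P228337 (adjusted p = 0.659).

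CASP1, the inflammasome caspase, rose after weaning in both arms. In control piglets its mean was 13.76 ± 0.31 at day 1, 13.44 ± 0.49 at day 7 and 12.85 ± 0.38 at weaning. It was 14.55 ± 0.38 at 4 d postweaning and 13.87 ± 0.32 at 28 d postweaning. In amoxicillin piglets the means were 13.44 ± 0.65, 13.70 ± 0.53, 12.78 ± 0.30, 14.46 ± 0.25 and 13.62 ± 0.51. Weaning was the lowest and 4 d postweaning the highest age in both arms, with spans of 1.69 and 1.68. The ages differed in both arms (adjusted p = 6.94e-04 in control and 8.62e-04 in amoxicillin piglets).

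The CASP1 levels of the control piglets at weaning were 13.00, 13.14 and 12.43, and those at 4 d postweaning were 14.46, 14.37, 14.26, 14.45 and 15.20. Those of the amoxicillin piglets were 13.09, 12.50, 12.56 and 12.98 at weaning and 14.32, 14.83, 14.39 and 14.32 at 4 d postweaning. Every piglet 4 d after weaning lay over every piglet at weaning, in either arm. The step was 1.69 (standard error 0.32, adjusted p = 0.00641), 3.24-fold, in control and 1.68 (standard error 0.31, adjusted p = 0.00143), 3.21-fold, in amoxicillin piglets.

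This CASP1 step was also seen inside slides. On the amoxicillin slide with both ages, 3 piglets of 4 d postweaning (14.32 to 14.83) stood against 4 of weaning (12.50 to 13.09), a difference of 1.73 that passed with the slide as a fixed block (adjusted p = 0.00187). On the control slide 1 piglet of 4 d postweaning (14.46) stood against 3 of weaning (12.43 to 13.14), a difference of 1.60 (adjusted p = 0.360 with the slide as a fixed block). Without control piglet 25 of weaning the control step was 1.48 (adjusted p = 0.0670).

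The CASP1 step before it, from day 7 to weaning, was -0.92 (standard error 0.31, adjusted p = 0.0458), 1.89-fold lower, in amoxicillin piglets and -0.59 (standard error 0.31, adjusted p = 0.538) in control piglets. In the amoxicillin arm the levels of day 7 were 13.60, 14.39, 13.72 and 13.09, and only piglet 24 of day 7, at 13.09, lay within the range of weaning. That piglet shared the slide of weaning, so that the difference within the slide was -0.30 (adjusted p = 0.884). The call was lost under 8 of 11 alternatives (steps of -1.06 to -0.30) and in 15 of 43 fits that left out an array, where the step was -0.69 (adjusted p = 0.189) without amoxicillin piglet 20 of day 7.

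Between arms CASP1 differed by -0.32 to 0.26 over the 5 ages, with standard errors of 0.28 to 0.33, and no difference passed. The other tested genes of the inflammatory list were IL18 and IL1B, the cytokines that CASP1 matures. IL18 rose by 1.77 (standard error 0.42, adjusted p = 0.0177) from weaning to 4 d postweaning in control piglets, from 10.91 to 12.68. In amoxicillin piglets the step of IL18 was 0.70 (standard error 0.40, adjusted p = 0.316) and that of IL1B 1.44 (standard error 0.66, adjusted p = 0.191). Of the 3 genes, 2 changed with age in the control arm (CASP1 and IL18), where 30.5% of all genes did. In the amoxicillin arm 3 did, where 47.0% of all genes did. IL1B did not pass in the control arm (adjusted p = 0.569, F-test in limma), with means of 8.13 at weaning and 8.39 at 4 d postweaning.

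Values of interferon-response genes and cell-type markers are given here beside the CASP1 step. Of 21 tested interferon-response genes, 11 rose from weaning to 4 d postweaning in the amoxicillin arm by limma, where 3.05% of all genes did. CXCL10, by 4.14 (adjusted p = 0.00166), was among them. In the control arm 0 did by limma, where 1.49% of all genes did, with 12 at an unadjusted p below 0.05. The median step of the 21 genes was 1.61 in the amoxicillin and 1.26 in the control arm, and the difference between arms was not shown to differ between ages for any of them (0 of 21 by limma, 2 at an unadjusted p below 0.05). The mean level of the 3 tested macrophage and monocyte markers was 8.93 to 10.30 at weaning and 9.61 to 11.42 at 4 d postweaning in control piglets, and 9.26 to 10.44 and 9.91 to 11.5 in amoxicillin piglets. Of these 3 markers 1 rose in the amoxicillin arm and 0 in the control arm by limma, where 1 had an unadjusted p below 0.05. Among the other lists, 4 of 4 crypt and proliferation markers were higher at 4 d postweaning in each arm (median step 1.41 in control and 0.59 in amoxicillin piglets), and 5 of 5 NK and cytotoxic markers were too (0.87 and 0.89). The 3 smooth muscle markers (median -1.46 and -0.35) and the 2 B cell markers (-1.35 and -2.50) were lower in each arm. Of the T cell markers 5 of 6 were higher and 1 lower in each arm (median 0.41 and 0.34). Both goblet markers were higher in control piglets (median 0.77). Of all these markers CD163 of macrophages, CD2 of T cells, SPDEF of goblet cells and ASCL2 of crypts passed the test, in the amoxicillin arm, where they rose by 2.58, 2.09, 1.30 and 2.30 (adjusted p = 0.00847, 0.0101, 0.0140 and 0.0388). In that arm the other goblet marker, CLCA1, was at -0.20 and CD247 of T cells at -0.52, so that single markers do not stand for their lists. The part of these genes in the CASP1 step was not tested.

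**Figure D4:**
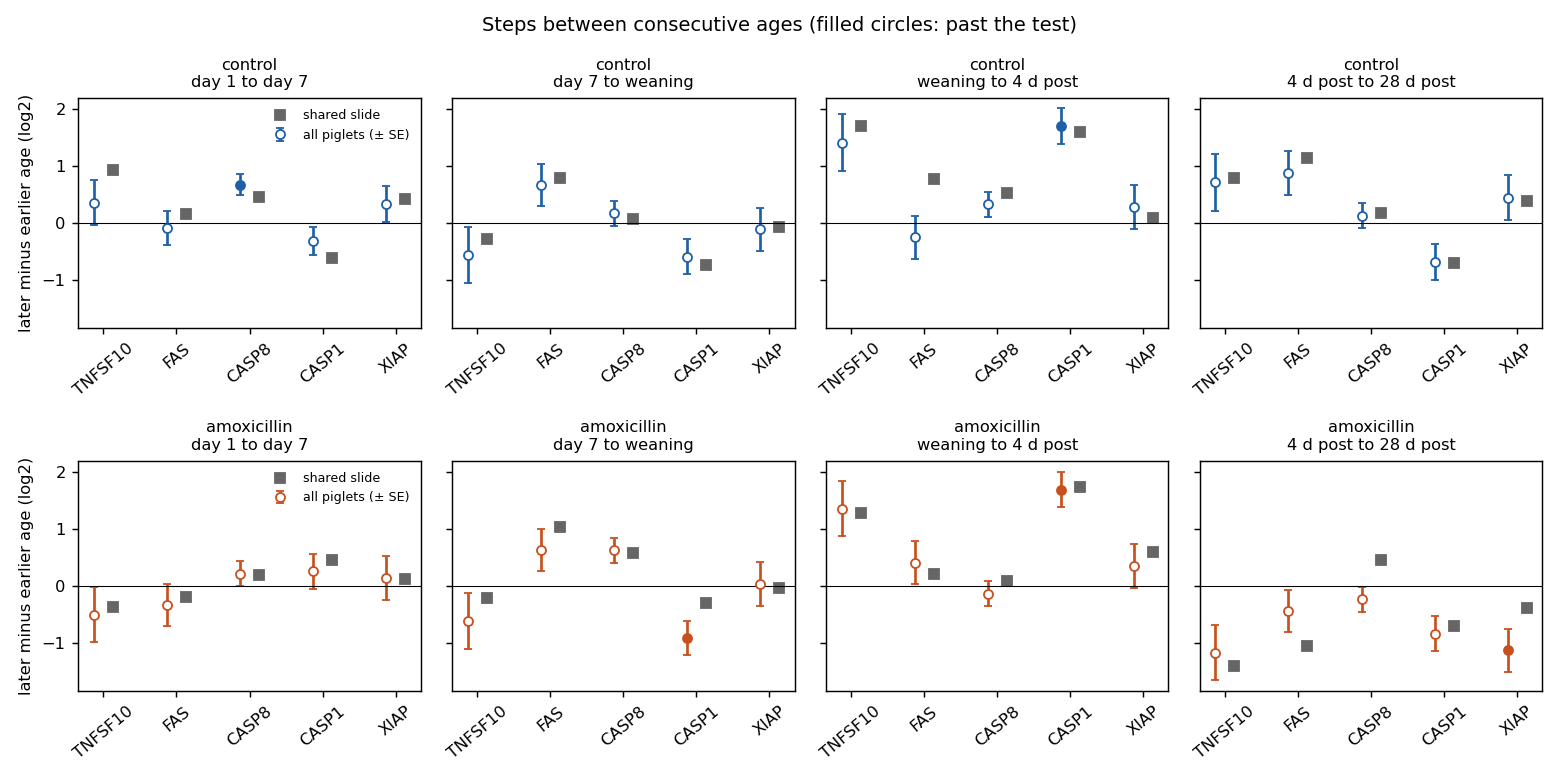
Difference between each age and the one before it (y axis, log2) for the 5 tested members (x axis) in control piglets (top row) and amoxicillin piglets (bottom row). Circles are the difference over all piglets ± standard error, filled where adjusted p was below 0.05, and grey squares the difference between the piglets of both ages that shared a slide. The CASP1 rise after weaning stands at 1.69 and 1.68 over all piglets and at 1.60 and 1.73 within a slide.

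XIAP, the caspase inhibitor, had means between 9.68 and 10.24 in both arms until 4 d postweaning and parted between arms at the last age. In control piglets the means were 9.73 ± 0.37, 10.06 ± 0.20, 9.95 ± 0.90, 10.24 ± 0.41 and 10.68 ± 0.98 from day 1 to 28 d postweaning. In amoxicillin piglets they were 9.68 ± 0.14, 9.81 ± 0.36, 9.84 ± 0.74, 10.19 ± 0.61 and 9.05 ± 0.72. The control means were highest and the amoxicillin means lowest at 28 d postweaning. Neighbouring ages in the order of means overlapped in both arms, and neither F-test over the ages passed (adjusted p = 0.299 and 0.117).

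The XIAP levels at that age were 9.96, 11.80 and 10.27 in control piglets 13, 34 and 37, and 8.62, 9.11, 8.44 and 10.05 in amoxicillin piglets 37, 38, 39 and 40. Amoxicillin piglet 40 lay above control piglet 13, so the groups overlapped, and control piglet 34 stood well over all others. The difference was -1.62 (standard error 0.41, adjusted p = 0.0169), or 3.08-fold lower after amoxicillin. The probe A_72_P146916 alone gave -1.35 (adjusted p = 0.0158), inside the fold threshold, and A_72_P443159 alone gave -1.90 (adjusted p = 0.0276). Without control piglet 34 the difference was -1.06 (adjusted p = 0.204), without amoxicillin piglet 37 or 39 it was -1.48 (adjusted p = 0.0528) or -1.42 (adjusted p = 0.0765), and with slide fitted as a random block it was -1.51 (adjusted p = 0.149).

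From 4 d to 28 d postweaning XIAP fell by 1.13 (standard error 0.38, adjusted p = 0.0433), 2.19-fold, in amoxicillin piglets, from levels of 9.95, 10.67, 10.7 and 9.44 to those above. In control piglets the same step was 0.44 (standard error 0.39, adjusted p = 0.948). The lowest piglet of 4 d postweaning, piglet 34, was the only one on the slide of the older piglets, and the difference within that slide was -0.38 (adjusted p = 0.891). The call was lost under 8 of 13 alternatives, among them the probe A_72_P443159 alone (-0.90, adjusted p = 0.214), and in 6 of 43 fits that left out an array (-0.93 without amoxicillin piglet 39 of 28 d postweaning, adjusted p = 0.152). Both XIAP and TNFSF10 had the same highest piglet in each arm at 28 d postweaning, control piglet 34 and amoxicillin piglet 40.

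BCL2L1, the mitochondrial protector, was well above background in 9 of 23 control and 1 of 20 amoxicillin piglets. Its level lay between 4.63 and 7.12 in control and between 2.94 and 6.73 in amoxicillin piglets. All of these levels were under the filter value of 7.68, and so it was not tested. The control arrays with a measurable level were 3 of 6 at day 1, 4 of 6 at day 7, 1 of 3 at weaning and 1 of 5 at 4 d postweaning, and the amoxicillin array was 1 of 4 at day 7. At 28 d postweaning no array of either arm measured it, though control piglets 13 and 37 had 29479 and 28240 gene spots well above background. At every age some arrays of both arms were not well above background for BCL2L1, and no fold between arms is given. The number of spots above background was lower in the amoxicillin arm, and its part in the count of measurable arrays was not tested.

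The members were set within a wider list of 77 cell-death genes, of which 28 were matched to a probe by symbol and 22 could be tested. The list includes the members, so its counts are not a separate comparison. TNFSF10, FAS and CASP8 count among the death-promoting genes and XIAP among the protective ones, each of them lower in amoxicillin piglets at 28 d postweaning. At 28 d postweaning 10 of 13 death-promoting genes were lower and 3 higher in amoxicillin piglets (median -0.55), and 5 of 6 protective genes were lower and 1 higher (median -0.23), against a median of -0.17 and a share of 63.6% lower over all genes. Only TNFSF10 in the first group and XIAP in the second were called. CASP10, a relative of CASP8, was at -0.62 (standard error 0.27, adjusted p = 0.203). Of the protective genes, TNFAIP3 (A20) was at -0.54, CFLAR (the CASP8 decoy c-FLIP) at -0.36 and API5 at 0.47, and none of the 3 passed. At the younger ages the median of the death-promoting group lay between -0.09 and 0.13 and that of the protective group between -0.29 and 0.16.

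**Figure D5:**
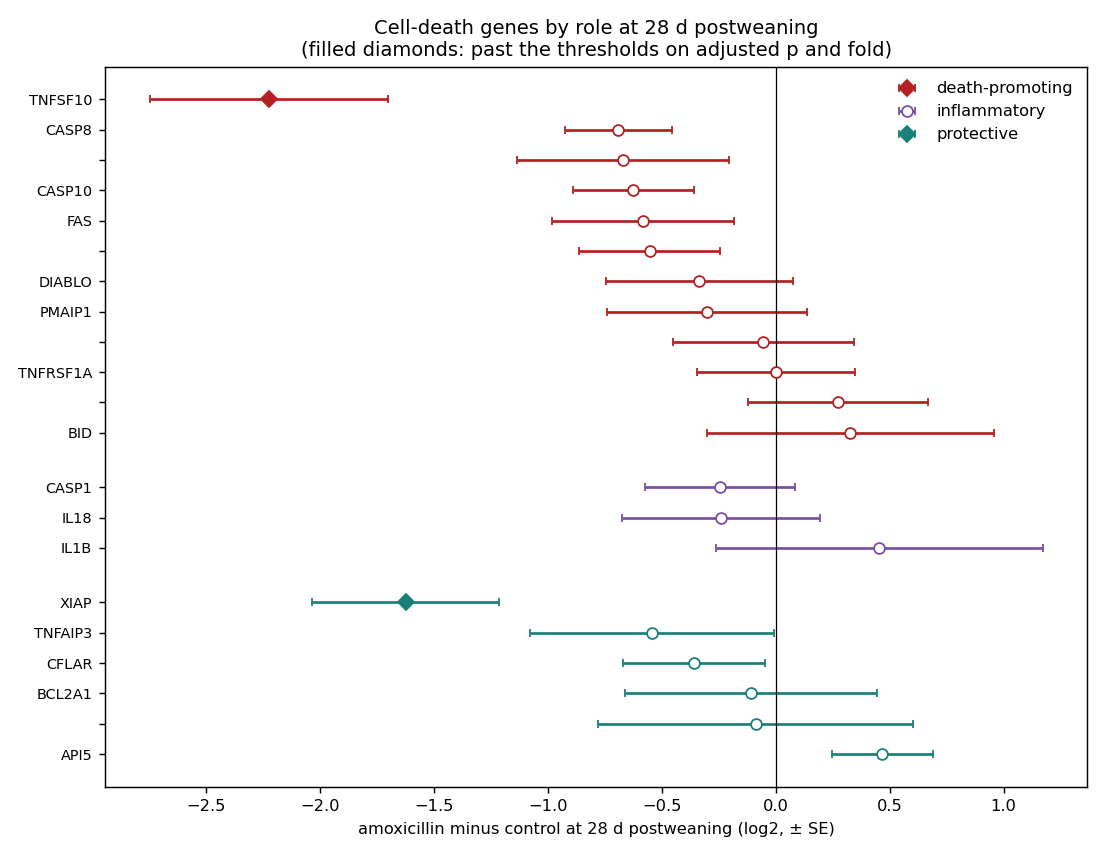
Amoxicillin minus control at 28 d postweaning (x axis, log2, ± standard error) for 21 of the 22 tested cell-death genes (y axis, named where the text describes them), in red for death-promoting, purple for inflammatory and green for protective genes. Filled diamonds mark TNFSF10 and XIAP, the genes past both thresholds, and most death-promoting and protective genes lie left of 0, as did 63.6% of all tested genes.

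Over the ages, BCL2A1 of the protective group, a relative of BCL2 known from immune cells, passed the F-test in both arms. None of its steps between consecutive ages was called. Its means in control piglets were 8.49, 8.33, 9.90, 9.92 and 9.25 (adjusted p = 0.00936), and in amoxicillin piglets 7.96, 8.87, 10.17, 10.47 and 9.14 (adjusted p = 7.88e-04). Among the death-promoting genes PMAIP1 (NOXA), which binds protective BCL2 proteins, changed with age, with means between 7.26 at day 1 and 8.54 at 4 d postweaning in control and between 7.13 at day 1 and 8.96 at weaning in amoxicillin piglets (adjusted p of the F-test = 0.0347 and 0.00315). BID, DIABLO, TNFRSF1A, API5 and CFLAR did not pass in either arm. TNFAIP3 changed in the amoxicillin arm (adjusted p of the F-test = 0.0206). There it fell by 1.68 (adjusted p = 0.0217) from 8.64 at 4 d to 6.96 at 28 d postweaning, a step in which 8.41% of all genes were called lower. It was well above background on 37 of 43 arrays. Only in control piglets at weaning and amoxicillin piglets at 4 d postweaning did its mean exceed the filter value of 7.68. TNFAIP3 could thus enter the tests only through groups where it was high, and its tests are no support for this fall.

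Cell-type markers were compared at 28 d postweaning beside TNFSF10 and XIAP. The mean level of the 6 T cell markers was 9.38 to 10.05 in control and 8.99 to 10.09 in amoxicillin piglets, and that of the 5 NK and cytotoxic markers 12.59 to 12.70 and 12.25 to 13.87. The 3 macrophage markers were at 10.12 to 10.66 and 9.98 to 10.61 and the 21 interferon-response genes at 11.76 to 12.85 and 12.18 to 13.11. The 3 smooth muscle markers were at 10.81 to 11.42 and 10.53 to 10.91. The 4 crypt markers were at 10.2 to 11.7 and 10.1 to 11.3, and the 2 goblet markers at 12.15 to 12.99 and 11.57 to 12.92. The 2 B cell markers were at 6.43 to 8.18 and 6.70 to 7.70. Median differences between arms were -0.52 for goblet (1 of 2 lower) and -0.41 for crypt markers (3 of 4 lower), against -0.17 over all genes. All of these ranges overlapped between arms, and 0 of the 32 tested markers, the saturated ones included, were called between arms at any age by limma, with 0 to 3 at an unadjusted p below 0.05. A saturated spot can hide a difference, so that the count says little about the saturated markers. Beside the epithelial markers, GZMB of the NK and cytotoxic list had a saturated spot on 5 arrays and CLCA1 of goblet cells on 16. No neutrophil marker was bright enough to be tested and no red cell marker was matched to a probe by its symbol, so those cells were not followed.

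Across the 43 arrays TNFSF10 and XIAP were the most alike of the members (Pearson r = 0.61, and 0.49 once group means were taken out). Among 1889 other named genes, XIAP was most like FAT1 (r = 0.86), CANX (0.79) and SLC30A1 (0.73), and TNFSF10 most like FAT1 (0.66), ATP1B1 (0.65) and CANX (0.65). CASP8 was most like IFIT1 (0.74), CD86 (0.74) and TNFSF13B (0.72), CASP1 like C5 (0.75) and NCEH1 (0.73), and FAS like NOS2 (0.73), CCL26 (0.68) and GPT2 (0.68). Once group means were taken out, CASP8 was at 0.35 with IFIT1, 0.53 with CD86 and 0.58 with TNFSF13B. The other pairs named here were then at 0.39 to 0.84. These values describe 43 arrays that share slides, ages and a normalisation. CASP1 and XIAP, by contrast, were at r = 0.04, and at -0.30 once group means were taken out.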

How the data were processed

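The authors deposited Agilent scanner files with intensity per spot, and a table of log2 values. The deposited intensities come from Feature Extraction (10.7.3.1, per the file headers). The authors' log2 table was made in R (3.0.2) with limma by normexp background correction (offset 1) and quantile normalisation, and repeating these steps here gave it to within 5e-09. Spots flagged as outliers were left out and the probes of a transcript were averaged. A transcript was tested if it exceeded the filter value of 7.68 (1.1 times the brightest dark corner spot) on every array of at least 1 group. No array column was left unmapped. Scanner files name no gene, so symbols came from RefSeq (Sscrofa11.1), with 3037 of 35884 accessions matched.

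A limma (3.58.1, R 4.3.3) fit of the 10 group means gave differences between arms (adjusted p below 0.05, log2 difference beyond 1.5), steps between ages and F-tests (adjusted p below 0.05), adjusted by Benjamini-Hochberg over all 12771 genes. The fits were tested on simulated data.

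The members and lists were chosen with earlier results of these data known. Named list genes were those called between arms and the 2 of each list with the lowest adjusted p among ages in each arm, and likeness was Pearson's r, the 3 highest being named. Some genes these rules would name are not reported here. Alternatives were other background correction, scaling and filters, the authors' table, slide and piglet number as blocks, array weights, single probes, single ages or arms, and each array left out. Sequences were not used here. Precision is limited by 3 to 6 arrays a group.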

Additional observations from a re-analysis of the deposited data

Results flagged for a closer look

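In 6 of 48 groups of 4 to 6 piglets tested, the highest or lowest piglet stood apart from the rest of its group, and chance flags about 1 in 20 groups. FAS was at 8.10 in control piglet 17 at day 1, where the next was 7.62. It was at 9.0 in control piglet 10 at 4 d postweaning (next 7.89), the piglet whose FAS level reached into the amoxicillin range. It was at 7.85 in amoxicillin piglet 38 at 28 d postweaning, where the other 3 lay between 8.41 and 8.43. CASP1 was at 15.20 in control piglet 32 (next 14.46) and at 14.83 in amoxicillin piglet 32 (next 14.39) at 4 d postweaning, different animals that share a number. BCL2L1 was at 5.09 in control piglet 4 at day 7, next to 5.92, and was not well above background on that array.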

How the results depend on the processing

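Between arms 2 member differences were called, against 1 with array weights and 0 with the arrays of each age alone, with slide as a random block and without control piglet 34 (a choice added after seeing the data). With the piglet number as a replicate block the number was also 0 (TNFSF10 at 28 d postweaning -3.01, adjusted p = 0.129; XIAP -1.65, adjusted p = 0.268). The numbers share no animal, and same-numbered piglets correlated at -0.28 to 0.45 over 10 pairs, 4 of them above 0.1. Leaving out each array gave 0 to 2, with 0 without control piglet 34 or amoxicillin piglet 39 and 1 without amoxicillin piglet 37, all of 28 d postweaning. Without piglet 39 the difference was -1.93 (adjusted p = 0.0508) in TNFSF10 and -1.42 (adjusted p = 0.0765) in XIAP, and without piglet 37 it was -1.48 (adjusted p = 0.0528) in XIAP. Called in the control F-tests were 4 members, 2 with the slide as a random and 0 as a fixed block, and 3 to 4 with an array left out. In the amoxicillin F-tests there were 2, and 1 with either slide block or the arm alone, and 2 to 4 with an array left out (4 without amoxicillin piglet 40 of 28 d postweaning). Of the control steps 2 were called, 1 with no filter, with a filter on spots well above background or with a random slide block, and 0 with a fixed one, and 1 to 2 with an array left out. Of the amoxicillin steps 3 were called, 1 with no filter, the arm alone or either slide block, and 2 to 4 with an array left out. The difference between ages of the amoxicillin contrast was called for 0 members and for 1 (TNFSF10) with array weights, and for 0 to 1 with an array left out. Under the slide as a fixed block few piglets share a slide, and the causes of the other changes were not tested. No called difference or step changed direction under any alternative. The CASP1 rise after weaning in amoxicillin piglets passed under all 11 alternatives and with each of the 43 arrays left out. Dim spots limit BCL2L1 and 1 FAS probe.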
